A study of Mus musculus with 6 samples.

Results

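The genes described here are 9 inflammasome genes of the mouse: Nlrp3, Aim2, Nlrc4, Naip2 and Naip5, which encode sensors, Pycard, which encodes the adaptor ASC, Casp1 and Casp4, which encode inflammatory caspases, and Gsdmd, which encodes the pore-forming protein gasdermin D. They were taken by symbol from a table of 25124 genes, and all 9 were found. All 9 also passed the filter on low values, with 11235 genes tested in all. The cells were macrophages grown from marrow of wild-type C57BL/6 mice, 8 weeks old, over 7 days in macrophage colony-stimulating factor (M-CSF). M2 cells then received interleukin-4 (IL-4) at 10 ng/ml with M-CSF at 20 ng/ml, and M0 cells received the same M-CSF without IL-4, with RNA taken 4 h later. Each group had 3 libraries of polyadenylated RNA. The labels do not say that the libraries came from separate mice or cultures, so p-values measure the spread between these libraries, which may be technical.

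Inflammasomes are protein assemblies in the cytosol that form when a sensor detects a microbial product or cell damage. NLRP3 responds to many disturbances of the cell, such as potassium loss, AIM2 binds double-stranded DNA, and NAIP proteins bind bacterial flagellin or secretion system parts and pass the signal to NLRC4. The sensors activate caspase-1, and NLRP3 and AIM2 do so through ASC. Caspase-1 matures interleukin-1β and interleukin-18 and cleaves gasdermin D. Caspase-11, the product of Casp4 in mice, cleaves gasdermin D after binding bacterial lipopolysaccharide. In resting macrophages the amount of NLRP3 is low and is raised by a priming signal through NF-kB. IL-4 signals through STAT6 and drives the alternative, or M2, state of macrophages.

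The 6 libraries held 16913185 to 19019896 reads in genes, recovered from the deposited TPM, a transcript abundance that allows for length and depth. M0 replicate 2 stood apart, since its scatter over counting error (a chi-square over its degrees of freedom) was 9.52 against M0 replicate 1 and 10.7 against M0 replicate 3. M0 replicates 1 and 3 differed by 2.31, and pairs of M2 libraries by 1.54 to 1.73. M0 replicate 2 was the highest M0 library for 7 of the 9 genes, and for 52.2% of all genes tested. The median gene was 0.15 lower in M2 on the log2 scale. The results of the 9 genes, and counts over lists, are therefore also given after median scaling, which divides each library by the median ratio of its genes to their averages and brings that median to 0.00. The cells carried macrophage markers in both groups. Adgre1, which encodes F4/80, averaged 534 TPM in M2 and 536 TPM in M0 libraries, and Csf1r, which encodes the M-CSF receptor, 913 TPM in M2 and 674 TPM in M0. Of the 8 markers, 4 rose and 3 fell, and their sum was lower in M2, at 15450 to 15830 TPM against 16450 to 17590 TPM in M0, mostly through Lyz2. Fcgr1, which encodes an Fc receptor, averaged 20.6 TPM in M2 and 128 TPM in M0, a log2 fold change of -2.58. Summed markers of neutrophils overlapped between groups, at 35.5 to 43.7 TPM in M2 and 37.5 to 44.7 TPM in M0, and none of the 5 tested passed. Of those not tested, Cxcr2 was higher in M2 without overlap, at 0.875 TPM against 0.051 TPM in M0. Ly6g, Mpo, Elane and Retnlg overlapped. Summed markers of monocytes were lower in M2, at 6.12 to 6.49 TPM against 8.09 to 9.83 TPM in M0, with Ccr2 falling and Hp at 1.64 TPM in M2 and 0.586 TPM in M0, a gene that reached 1 TPM only in M2 libraries. Stromal markers were also lower, at 2.66 to 3.32 TPM in M2 and 4.98 to 5.25 TPM in M0. Dendritic cell markers were higher in sum, at 1.36 to 1.52 TPM in M2 and 0.436 to 0.607 TPM in M0, mostly from Zbtb46. Xcr1 of this list was lower without overlap, at 0.103 TPM in M2 and 0.240 TPM in M0. The groups overlapped for Flt3, Clec9a, Siglech and Ccr7, and none of the 6 genes was tested. Mast cell and basophil markers were near 0 and lower, at 0.262 to 0.282 TPM in M2 and 0.393 to 0.497 TPM in M0, and sums for T and NK, B and erythroid cells overlapped, with Cd8a, Mcpt8, Hba-a1 and Hbb-bs listed at 0 in every library. The part of these cells in the results below was not tested.

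Reads of the NAIP genes can belong to more than one gene. Naip2, Naip5, Naip6 and Naip1 lie in this order on the reverse strand of chromosome 13 (mm10). Naip2 lies at chr13:100144063-100202122 in 16 exons, and Naip5 at chr13:100211740-100247336. The GENCODE transcript of Naip5, with 14 exons, starts inside that entry, at chr13:100246323. Of all 50-base words in the GENCODE transcripts, 19.4% of those of Naip2 and 36.8% of those of Naip5 occurred in another gene, against 1.13% for Nlrc4, 0.79% for Aim2 and 0% for the other 5 genes. Of the words of Naip2, 9.53% occurred in Naip5, and of those of Naip5, 22.0% occurred in Naip6. The stretch of coding sequence below adjoins the longest run of bases that Naip2 and Naip5 share, so it is not typical of the 2 genes. It opens with the last 30 bases of a run of 140 identical bases, and capitals mark the 7 bases that differ in the 60 that follow. Both sequences are from GRCm38 with GENCODE M21 exons, on the reverse strand, at chr13:100161582-100161671 for Naip2 and chr13:100222914-100223003 for Naip5.
Naip2: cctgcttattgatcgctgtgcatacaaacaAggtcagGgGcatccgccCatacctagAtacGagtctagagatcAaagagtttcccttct
Naip5: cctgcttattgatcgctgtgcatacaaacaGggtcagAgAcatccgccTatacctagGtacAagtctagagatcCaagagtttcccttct

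How the counting treated a read that matches several NAIP genes is not given in the sources used here. The Naip2, Naip5 and Naip6 values carry that uncertainty.

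Across the 9 genes, M2 macrophages had lower transcript levels of most sensors and a higher level of the adaptor. Nlrp3 fell 2.86-fold, and Nlrc4, Naip2 and Aim2 fell as well, while Pycard rose 1.24-fold. Of the 9, 1 rose and 6 fell in M2, and Gsdmd and Naip5 did not pass (limma-trend, Benjamini-Hochberg adjusted p under 0.05 over all genes tested). By the same rule 17.7% of all genes tested rose and 45.3% fell, so a fall was common. After median scaling, 2 rose (Pycard and Gsdmd), 4 fell (Nlrp3, Aim2, Nlrc4 and Naip2) and 3 did not pass, against 28.6% of all genes rising and 28.5% falling. The median log2 fold change of the 9 genes was -0.26, against -0.15 for all genes tested, and -0.10 against 0.00 after scaling. Values of the 3 M2 libraries lay below all 3 M0 libraries for 6 genes and above them for 1, where 49.8% and 19.6% of all genes tested did so. After scaling these counts were 5 and 2, against 32.7% and 32.2%. Without M0 replicate 2, the same 7 genes passed, 1 rising and 6 falling, against 20.1% and 46.0% of all genes tested. In bulk RNA, fewer cells carrying a transcript and less of it per cell cannot be told apart.

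**Figure D1:**
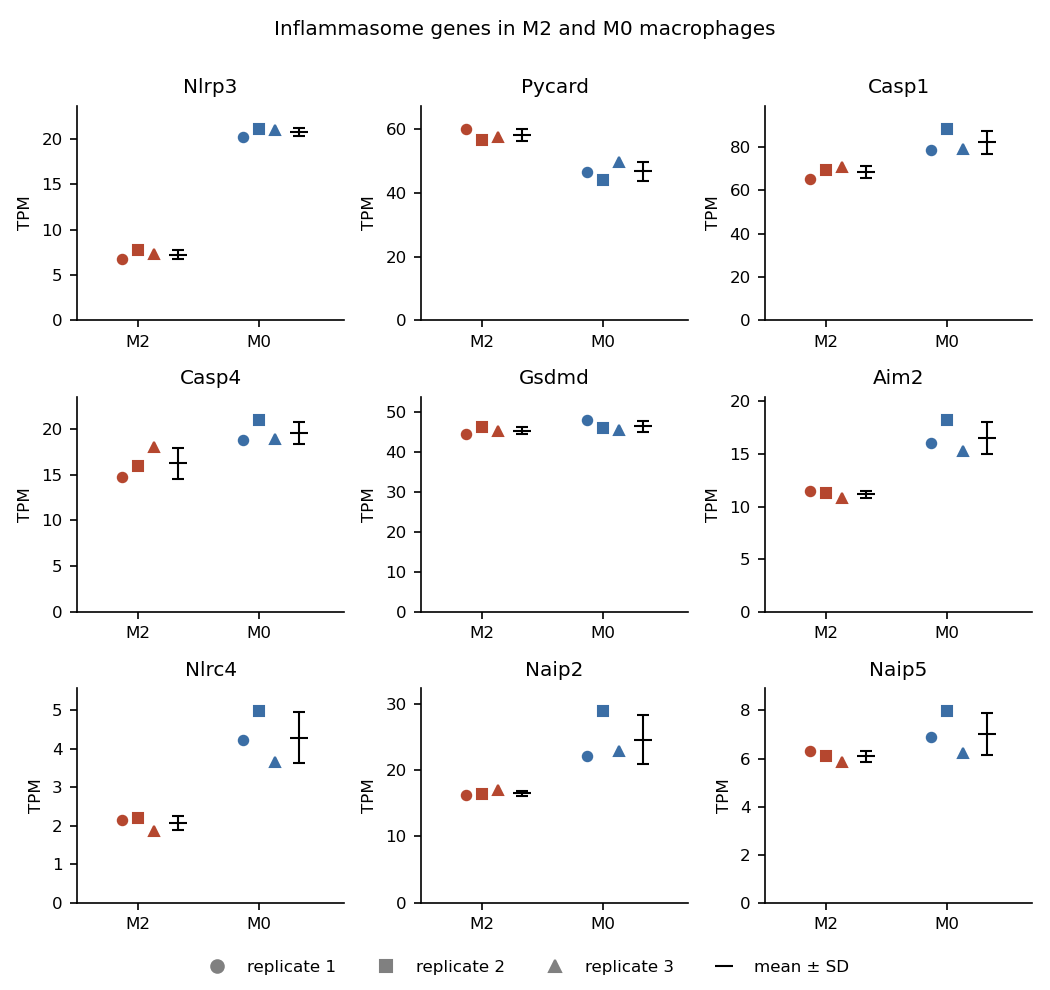
Level of each of the 9 genes in TPM (vertical axes from 0), with 1 point per library, M2 left of M0, and the mean with SD of 3 libraries to the right of each group. The Nlrp3 points of M2 lie between 6.75 and 7.71 TPM, far below those of M0 at 20.2 to 21.1 TPM, and for Gsdmd and Naip5 the groups overlap.

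The 4 largest log2 fold changes among the 9 genes were of Nlrp3, Nlrc4, Naip2 and Aim2, all on the sensing side. Nlrp3 (chr11:59541569-59566953, forward strand, 11 exons) had 6.75, 7.71 and 7.30 TPM in M2 libraries, against 20.2, 21.1 and 21.0 TPM in M0 libraries. The groups were far apart and each was tight. Nlrp3 averaged 7.25 ± 0.48 TPM in M2 and 20.8 ± 0.47 TPM in M0 (SD, n = 3 each), a log2 fold change of -1.40 (SE 0.07, limma adjusted p = 3.7e-08), and -1.24 after median scaling (limma adjusted p = 2.01e-07). It is the sensor whose supply is raised by priming signals. In M2 it stood at the 35.2 percentile of tested genes by mean level, and in M0 at the 61.2 percentile.

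Aim2 (chr1:173420604-173466036, forward strand), the gene of the DNA sensor, had 11.5, 11.3 and 10.8 TPM in M2, against 16.1, 18.2 and 15.3 TPM in M0. Its GENCODE transcript has 12 exons and starts upstream of the deposited entry, at chr1:173350879. No M2 library reached the lowest M0 library. The log2 fold change was -0.52 (SE 0.07, limma adjusted p = 0.000126), and -0.37 after scaling (limma adjusted p = 0.000833). Nlrc4 (chr17:74426295-74459108, reverse strand, 9 exons), which relays the NAIP signal, was the least abundant of the 9 genes in both groups, with 2.14, 2.20 and 1.87 TPM in M2 and 4.22, 4.97 and 3.66 TPM in M0. These values rest on 117 to 126 reads per M2 library and 200 to 288 reads per M0 library, and the groups did not overlap. Nlrc4 fell by 0.78 on the log2 scale (SE 0.10, limma adjusted p = 9.55e-05) and by 0.65 after scaling (limma adjusted p = 0.000321).

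Of the NAIP genes, Naip2 fell and Naip5 did not pass. Naip2, whose product senses the rod protein of bacterial secretion systems, had 16.2, 16.4 and 16.9 TPM in M2, against 22.0, 28.9 and 22.8 TPM in M0. M0 replicate 2 was the high one, and the other M0 libraries were also above all M2 libraries. Naip2 had a log2 fold change of -0.54 (SE 0.09, limma adjusted p = 0.000487), -0.42 without M0 replicate 2 (limma adjusted p = 6.2e-05) and -0.38 after scaling (limma adjusted p = 0.00329). Naip5, whose product senses flagellin, had 6.32, 6.09 and 5.86 TPM in M2 and 6.90, 7.97 and 6.23 TPM in M0. The lowest M0 library lay inside the M2 range. Its log2 fold change of -0.17 had a 95% interval of -0.37 to 0.02 and did not pass (limma adjusted p = 0.107). It passed without M0 replicate 3 (-0.25, limma adjusted p = 0.0325) but not without M0 replicate 2 (-0.09, limma adjusted p = 0.252). After scaling it was -0.03 (limma adjusted p = 0.784). The Naip2 to Naip5 ratio within a library averaged 2.71 ± 0.16 in M2 and 3.49 ± 0.26 in M0 (SD, n = 3 each), without overlap. An exact two-sided permutation test gave p = 0.1, the smallest that 3 against 3 libraries allow.

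Pycard (chr7:127991373-127993867, reverse strand, 3 exons) went the other way. It had 60.2, 56.7 and 57.7 TPM in M2, against 46.6, 44.0 and 49.8 TPM in M0. Each M2 library was above each M0 library. The log2 fold change was 0.31 (SE 0.06, limma adjusted p = 0.000655), and 0.48 after scaling (limma adjusted p = 0.000156). In the GENCODE annotation 485 exon bases of Pycard are also covered by Gm45205 on the other strand. The GENCODE transcript runs on to chr7:127989708, past the deposited entry, and whether these bases lie inside the entry was not checked. Whether counting used strand is not given in the sources used here. The ASC gene is the adaptor that NLRP3 and AIM2 share, and the ratio of sensor to adaptor transcript within a library was lower in M2 for both. Nlrp3 to Pycard averaged 0.125 ± 0.012 in M2 and 0.445 ± 0.031 in M0, and Aim2 to Pycard averaged 0.192 ± 0.006 in M2 and 0.356 ± 0.054 in M0 (SD, n = 3 each), each without overlap and each with an exact permutation p = 0.1. Such a ratio does not depend on how a library was scaled.

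The caspase genes had smaller differences, which depended on the scaling. Casp1 (chr9:5298517-5307281, forward strand, 10 exons), the most abundant of the 9 genes in both groups, had 65.3, 69.2 and 70.6 TPM in M2 and 78.7, 88.3 and 78.9 TPM in M0. Casp4 (chr9:5308849-5336791, forward strand, 9 exons) lies just after Casp1 on the same strand and had 14.7, 16.0 and 18.0 TPM in M2 and 18.8, 21.0 and 18.9 TPM in M0. In both genes every M2 library was below every M0 library. Casp1 and Casp4 each had a log2 fold change of -0.26, and limma adjusted p = 0.00256 for Casp1 and 0.0157 for Casp4. Neither passed after scaling, at -0.09 for Casp1 (95% interval -0.20 to 0.02, limma adjusted p = 0.153) and -0.10 for Casp4 (-0.26 to 0.07, limma adjusted p = 0.288). Casp4 also lost its call without M2 replicate 1 (-0.19, limma adjusted p = 0.0754) or M2 replicate 2 (-0.25, limma adjusted p = 0.0504). Within a library the ratio of Casp4 to Casp1 averaged 0.237 ± 0.016 in M2 and 0.239 ± 0.001 in M0 (SD, n = 3 each), and the groups overlapped (exact permutation p = 1.0). The genes share no 50-base word.

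Gsdmd (chr15:75862339-75867404, forward strand, 11 exons), the executioner of pyroptosis, had 44.6, 46.1 and 45.3 TPM in M2 and 48.0, 46.0 and 45.4 TPM in M0. The groups overlapped, and the log2 fold change of -0.03 had a 95% interval of -0.14 to 0.07 (limma adjusted p = 0.538). After median scaling its sign changed, to 0.13 (limma adjusted p = 0.0345). Relative to Casp1 it was higher in M2, with a Gsdmd to Casp1 ratio of 0.663 ± 0.020 in M2 and 0.568 ± 0.045 in M0 (SD, n = 3 each), without overlap and with an exact permutation p = 0.1.

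**Figure D2:**
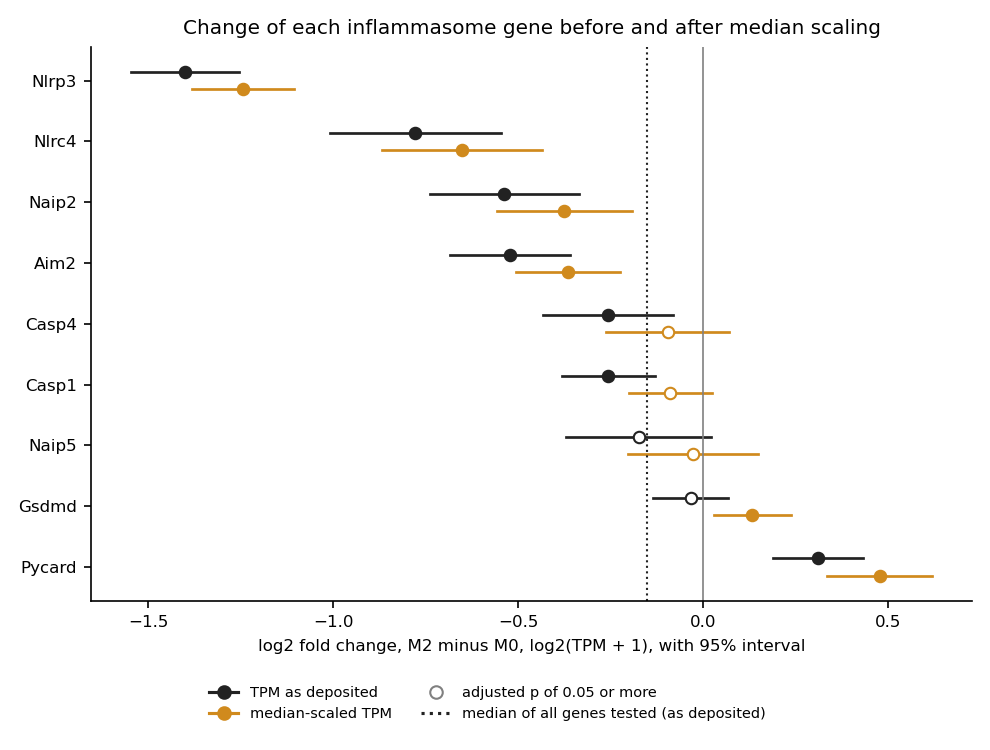
Log2 fold change of each gene (M2 minus M0, horizontal axis) with its 95% interval, in TPM as deposited (black) and after median scaling (orange), with hollow points where the adjusted p was 0.05 or more. The dotted line marks the median of all genes tested, -0.15. Nlrp3 lies at -1.40 and Pycard at 0.31, while Gsdmd moves across 0 with scaling, at -0.03 in TPM as deposited and 0.13 after scaling.

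In M2 the mean levels ran from Casp1 at 68.4 TPM through Pycard at 58.2, Gsdmd at 45.3, Naip2 at 16.5, Casp4 at 16.2, Aim2 at 11.2, Nlrp3 at 7.25 and Naip5 at 6.09 to Nlrc4 at 2.07 TPM. In M0 they ran from Casp1 at 82.0 TPM through Pycard at 46.8, Gsdmd at 46.4, Naip2 at 24.6, Nlrp3 at 20.8, Casp4 at 19.6, Aim2 at 16.5 and Naip5 at 7.03 to Nlrc4 at 4.28 TPM. Neighbours in these orders overlapped in a single pair in M2, Naip2 and Casp4, and in 2 pairs in M0, Pycard with Gsdmd and Nlrp3 with Casp4. The highest exceeded the lowest 33.1-fold in M2 and 19.1-fold in M0. Nlrp3 stood above Aim2 in M0 and below it in M2. In the authors' deposited table, 1 of the 9 genes passed with a higher level (Pycard, log2 fold change 0.48, adjusted p = 9.13e-11) and 4 with a lower one. These were Nlrp3 at -1.33 (adjusted p = 1.73e-57), Nlrc4 at -0.86, Naip2 at -0.40 and Aim2 at -0.39, again from the authors' deposited table.

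The genes whose pattern over the 6 libraries came nearest were found by the root mean square difference in log2(TPM + 1) centred on M0. For Nlrp3 these were Pmp22 (0.03) and Uhrf1 (0.05), for Casp1 Eif2s3x (0.01) and Atp9b (0.02), for Pycard LOC114841036 (0.02) and Acaa2 (0.02), and for Gsdmd Golph3 (0.01) and Dap (0.02).

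The promoters of 8 of the 9 genes had an entry in the RefSeq table (GRCm38.p6). The 250 bases before each start were searched on both strands for letters of known binding sites. Starts are those of the deposited entries, so for Aim2 the window before the upstream GENCODE start was left out. For Naip5 the GENCODE start lies inside the deposited entry, at chr13:100246323, so the window searched does not adjoin it. Shown are the promoters of the gene that fell most, Nlrp3, of another that fell, Aim2, and of the one that rose, Pycard. Capitals mark a match to the NF-kB site, on the other strand, in Nlrp3 (186 bases before the start). They also mark the PU.1 site GAGGAAGT in Aim2 (113 bases before) and, on the other strand, in Pycard (44 bases before).
Nlrp3, chr11:59541319-59541568, forward strand: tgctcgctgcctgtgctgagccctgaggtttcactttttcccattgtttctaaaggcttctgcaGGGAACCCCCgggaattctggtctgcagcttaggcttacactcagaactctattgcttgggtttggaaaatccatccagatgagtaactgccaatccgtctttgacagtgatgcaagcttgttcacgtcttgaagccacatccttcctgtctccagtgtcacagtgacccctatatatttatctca
Aim2, chr1:173420354-173420603, forward strand: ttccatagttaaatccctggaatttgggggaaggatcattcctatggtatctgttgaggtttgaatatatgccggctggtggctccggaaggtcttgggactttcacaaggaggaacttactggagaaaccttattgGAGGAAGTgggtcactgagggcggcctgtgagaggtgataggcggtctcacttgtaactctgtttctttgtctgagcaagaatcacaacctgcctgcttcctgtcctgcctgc
Pycard, chr7:127993868-127994117, reverse strand: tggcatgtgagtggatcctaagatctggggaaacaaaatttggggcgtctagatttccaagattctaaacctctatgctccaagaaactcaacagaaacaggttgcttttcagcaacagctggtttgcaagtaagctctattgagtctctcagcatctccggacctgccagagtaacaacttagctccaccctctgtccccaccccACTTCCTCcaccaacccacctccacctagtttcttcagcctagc

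Of the 8 promoters, Nlrp3, Casp4 and Naip5 held the NF-kB site, which 3.90% of 32851 promoters hold, and Pycard and Aim2 held the PU.1 site, which 2.44% hold. In Casp4 there were 2 overlapping matches. Nlrc4, Naip2 and Casp1 held none of the sites searched. None of the 8 held the STAT6 site (TTC and GAA with 4 bases between them), found in 5.85% of all promoters, the GAS site (TTC and GAA with 3 bases between, 7.02%), the interferon response element (GAAA and GAAA with 2 bases between, 2.98%) or the element for PU.1 with an IRF (GGAA and GAAA with 2 bases between, 2.30%). A match says only that these letters are present, and none says only that they are not in this window.

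Around these 9 genes, 63 further genes were set out in 6 lists, of which 61 were in the table and 56 were tested. Of the 56, 12 rose and 30 fell in M2 and 14 did not pass, or 14, 26 and 16 after median scaling, with a median log2 fold change of -0.27 (-0.11 scaled). Over all genes tested 17.7% rose and 45.3% fell (28.6% and 28.5% scaled), with a median of -0.15 (0.00 scaled), and these shares are the background for each list. Among other sensors, 2 of 8 tested rose and 5 fell (2 and 3 after scaling). Nlrp10, a NOD-like protein without the leucine-rich repeats that most sensors carry, averaged 4.03 ± 0.28 TPM in M2 and 1.24 ± 0.20 TPM in M0, a log2 fold change of 1.17 (limma adjusted p = 2.06e-06). Mefv, which encodes the sensor pyrin, averaged 1.63 TPM in M2 and 0.788 TPM in M0. Mefv reached the filter of 1 TPM only in the M2 libraries, so its counted rise rests on that filter and could not be tested with an M2 library left out, while with no filter it passed as well (limma adjusted p = 0.00189). Nod2, which senses bacterial peptidoglycan fragments, fell to 1.24 TPM in M2, against 2.30 TPM in M0, and Naip6, another NAIP gene, to 3.08 TPM in M2, against 4.55 TPM in M0. Naip1 was too low to be tested, at 0.115 TPM in M2 and 0.157 TPM in M0.

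Among substrates and their control, 2 of 7 tested rose and 4 fell, with the same counts after scaling. Il1b, the gene of interleukin-1β, was low in both groups, with 1.22, 1.20 and 1.55 TPM in M2 and 0.586, 0.691 and 0.418 TPM in M0. These are 24 to 34 reads per M2 library and 8 to 14 per M0 library, and the groups did not overlap. Il1b also passed the filter only through the M2 libraries, so its call (log2 fold change 0.57) rests on that filter, though with no filter it passed too (limma adjusted p = 0.00288). It could not be tested with any M2 library left out or at 50 reads or more. Il1rn, which encodes the antagonist of its receptor, fell to 16.2 ± 1.2 TPM in M2, against 54.6 ± 4.0 TPM in M0 (SD, n = 3 each), a log2 fold change of -1.69 (limma adjusted p = 1.42e-08). Within a library the Il1rn to Il1b ratio was 10.7 to 13.9 in M2 and 85.2 to 122 in M0, without overlap (exact permutation p = 0.1), with an M0 denominator of few reads. Il18, the gene of interleukin-18, had 4.80, 6.68 and 4.93 TPM in M2 and 12.3, 12.0 and 11.5 TPM in M0, and Il18bp, which encodes its binding protein and was chosen for mention after its values were seen, averaged 14.0 TPM in M2 and 9.18 TPM in M0. The groups did not overlap in either gene, and the Il18 to Il18bp ratio averaged 0.390 ± 0.056 in M2 and 1.32 ± 0.20 in M0 (SD, n = 3 each).

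Gsdme and Ninj1, of the same list, fell. Gsdme, a gasdermin cleaved by caspase-3, had 2.80, 2.89 and 2.56 TPM in M2 and 10.1, 10.5 and 9.98 TPM in M0, a log2 fold change of -1.58 (limma adjusted p = 3.39e-08). Ninj1, which ruptures the plasma membrane at the end of lytic death, averaged 240 ± 0.96 TPM in M2 and 430.1 ± 30.9 TPM in M0, a log2 fold change of -0.84 (limma adjusted p = 2.67e-07). In both genes the groups were separate.

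**Figure D3:**
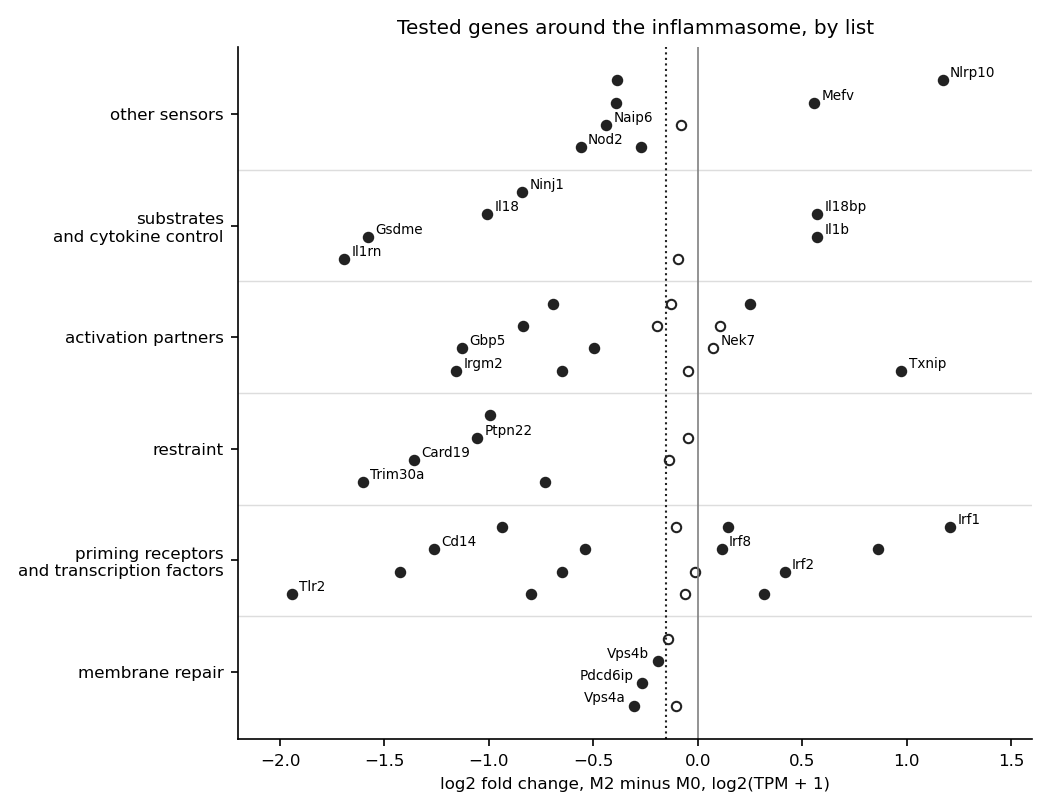
Log2 fold change (M2 minus M0, horizontal axis) of the 56 tested genes in 6 lists, each point 1 gene, filled where the limma adjusted p was under 0.05, with the dotted line at the median of all genes tested, -0.15. Genes named in the text are labelled, and in the list headed restraint every filled point lies left of 0.

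Of the 13 genes in the list headed activation partners, 2 rose and 6 fell in M2, or 4 and 6 after scaling. The heading does not mean that each gene, Irgm2 among them, promotes activation. Txnip, which encodes a thioredoxin-binding protein reported to bind NLRP3, rose to 413 ± 5.6 TPM in M2, against 210 ± 6.6 TPM in M0 (log2 fold change 0.97, limma adjusted p = 1.04e-08), with 603 exon bases shared with Gm15441 on the other strand. The GTPase genes Gbp5 and Irgm2 fell. Gbp5, whose product has been linked to NLRP3 assembly, averaged 1.86 TPM in M2 and 5.29 TPM in M0 (log2 fold change -1.13), and Irgm2, of the immunity-related GTPases, averaged 9.66 TPM in M2 and 22.8 TPM in M0 (-1.16). Nek7, a kinase that NLRP3 needs for assembly, averaged 44.0 TPM in M2 and 41.9 TPM in M0 and did not pass (log2 fold change 0.07, limma adjusted p = 0.356). It passed as higher after scaling (0.24, limma adjusted p = 0.00622) and without M0 replicate 2 (0.15, limma adjusted p = 0.00406).

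In the list headed restraint, none of the 7 tested genes rose and 5 fell, before and after scaling. Of all genes tested 45.3% fell, or 28.5% after scaling. How each of these genes acts on an inflammasome was not tested, and some may promote one. The count is therefore no measure of lost restraint. Trim30a, a TRIM protein that dampens NF-kB and NLRP3 signalling in mice, had 15.2, 18.1 and 17.3 TPM in M2 and 55.7, 58.5 and 45.9 TPM in M0 (log2 fold change -1.60, limma adjusted p = 3.04e-07). Card19, a mitochondrial protein with a caspase recruitment domain, averaged 98.4 TPM in M2 and 255 TPM in M0 (log2 fold change -1.36), and lies beside Ninj1 on chromosome 13. Ptpn22, a phosphatase, averaged 4.19 TPM in M2 and 9.81 TPM in M0 (log2 fold change -1.06).

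Of the 16 priming receptors and transcription factors, 6 rose and 7 fell, before and after scaling. Among receptors, Tlr2, which senses bacterial lipopeptides, averaged 6.05 TPM in M2 and 26.1 TPM in M0 (log2 fold change -1.94), and Cd14, the lipopolysaccharide co-receptor, averaged 65.4 TPM in M2 and 158 TPM in M0 (-1.26). Among factors, Irf1, which encodes an interferon-responsive factor, rose, with 75.1, 74.3 and 77.4 TPM in M2 and 32.5, 33.2 and 30.9 TPM in M0 (log2 fold change 1.21, limma adjusted p = 1.02e-08). IRF2, known in macrophages as a driver of Gsdmd transcription, had its transcript at 58.2, 57.1 and 59.6 TPM in M2 and 42.4, 48.5 and 39.9 TPM in M0 (Irf2, log2 fold change 0.42, limma adjusted p = 0.00037). The Irf2 groups did not overlap. Irf8, whose product is known to drive Naip and Nlrc4 transcription, had 82.0, 84.6 and 79.9 TPM in M2 and 75.8, 75.1 and 76.6 TPM in M0. Irf8 passed as higher (log2 fold change 0.11, limma adjusted p = 0.0375) but lost its call without M0 replicate 1, without M0 replicate 3 or without any single M2 library, at limma adjusted p from 0.0531 to 0.167. After scaling it was 0.28 higher (limma adjusted p = 0.000561).

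**Figure D4:**
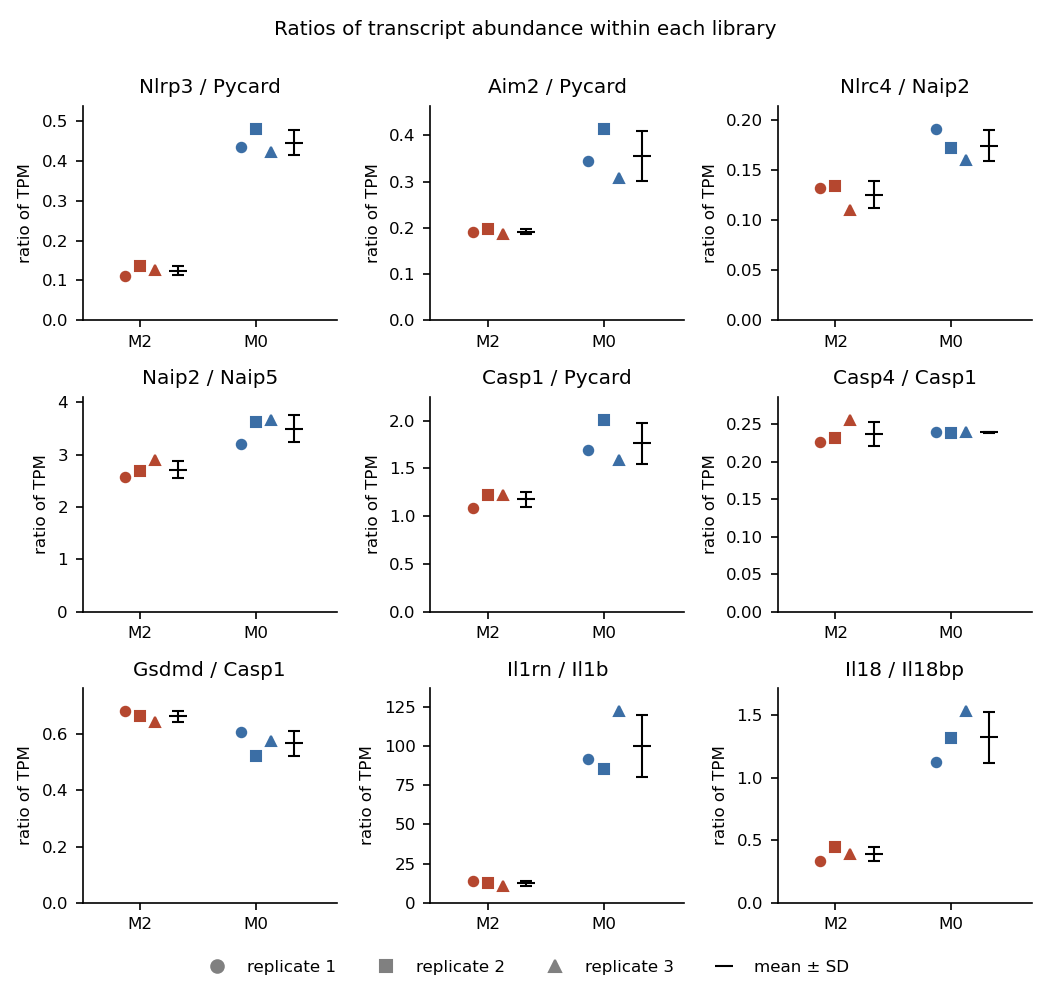
Ratios of TPM within each library (vertical axes from 0), with 1 point per library, M2 left of M0, and the mean with SD of 3 libraries to the right of each group. In 8 of the 9 ratios the groups are separate, and Casp4 to Casp1 overlaps. Nlrp3 to Pycard is at 0.112 to 0.136 in M2 and 0.421 to 0.480 in M0. The share of separate groups among ratios of other gene pairs was not computed. For single genes in TPM, M2 libraries lay wholly below M0 for 49.8% of all tested and wholly above for 19.6%.

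Adjusted over the 9 ratios computed, p = 0.1125 for the 8 separate ones (Benjamini-Hochberg over exact permutation p-values), so none passed. Of the 5 genes for plasma membrane repair, 3 fell and none rose, and 1 fell after scaling. Vps4a, an ATPase of the ESCRT machinery that repairs gasdermin pores, averaged 27.8 TPM in M2 and 34.6 TPM in M0 (log2 fold change -0.31, -0.14 after scaling, limma adjusted p = 0.0319 there). Vps4b and Pdcd6ip, which encode other ESCRT factors, had log2 fold changes of -0.19 and -0.27, and after scaling of -0.02 (limma adjusted p = 0.659) and -0.10 (limma adjusted p = 0.057).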

How the data were processed

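Groups came from the labels, and table columns were matched to sample titles. The submitters' processing notes name HOMER 4.11.1, STAR, bcl2fastq and DESeq2, and the build mm10. The authors deposited TPM per library and gene, made from reads in exons of RefSeq genes, per the file headers. The authors' deposited comparison table holds log2 fold changes and adjusted p-values, and their sign was checked against library means. Reads were recovered as TPM times transcript length over a fixed step, whole within 0.1 read for 99.8% to 99.9% of values.

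Since TPM are not counts, genes were tested by limma-trend (R 4.3.3, limma 3.58.1; robust, two-sided) on log2(TPM + 1), with group alone as a term. It covered genes at 1 TPM or more in 3 libraries or more, and the threshold was a Benjamini-Hochberg adjusted p of 0.05 over all of them. On this scale the change of low genes is understated. The alternatives were median scaling, a pseudocount of 0.1 or 5, at least 50 recovered reads or no filter, voom on recovered reads, the same test on the log2-scale values of the authors' deposited table, a replicate block, moderation with neither trend nor robust, and each library left out. Intervals are 95%. Ratios within a library had exact two-sided permutation tests over 20 groupings. The fit was tested on simulated data.

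All 9 members were named, with up to 3 genes per list with the largest change past the threshold and no overlap, and 11 genes whatever their result. A gene that this rule names is not reported here. Members, lists and tests were chosen with earlier results of these data known. Gene coordinates are from the deposited table (mm10), exons and 50-base words from GENCODE M21, and promoters from RefSeq. Python 3.11.15, numpy 2.4.6, pandas 2.3.3, scipy 1.17.1 and matplotlib 3.10.9 were used.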

Additional observations from a re-analysis of the deposited data

How the results depend on the processing

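Of 135 values of the 9 members under the 15 alternatives, 123 kept their direction and call, and of 368 for the other named genes, 353 did. Nlrp3, Pycard, Aim2, Nlrc4 and Naip2 kept theirs under every alternative. Median scaling, limma-voom on recovered reads and limma-trend on the authors' log2-scale values gave 3208, 3278 and 3318 genes higher and 3205, 3285 and 3323 lower, against 1983 and 5088 in TPM as deposited. Members higher in M2 were then 2 in each. In the same order, Casp1 was -0.0892, -0.0900 and -0.0842 and Casp4 was -0.0964, -0.0985 and -0.0863 (neither passed), while Gsdmd turned to 0.132, 0.135 and 0.126 and passed. With libraries left out one at a time, Casp4 ranged from -0.330 to -0.194, Naip5 from -0.248 to -0.0928 and the pathway genes higher in M2 from 7 to 14, with 7 without M2 replicate 1 and 14 without M0 replicate 2. The cause of the changes in these left-out values was not tested.

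A replicate block gave 1953 genes higher and 4963 lower, and members 1 higher and 6 lower. Of the genes named, it changed the call of Irf8 (limma adjusted p = 0.0749). Same-numbered libraries deviated together by correlations of 0.005, -0.005 and -0.043, which gave no sign of pairing by number. Such values cannot tell whether libraries shared a mouse or a culture. Mefv has no value with an M2 library left out, nor Il1b then or at 50 reads. At this depth Nlrc4, Il1b and Naip1 rest on few reads, as do others such as Mefv, Nod2 and Hp.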
